A study of Mus musculus with 6 samples.

Results

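The 4 type IV collagen genes Col4a1, Col4a2, Col4a3 and Col4a4 were examined in MeDIP-seq data of mouse primary mesangial cells, to compare DNA methylation between TGF-β1-treated and control samples. They are 4 of the 22380 protein-coding genes of the annotation used, and they were chosen by name, with every called peak whose summit lay in a gene or within 5 kb of it. MeDIP-seq pulls down methylated DNA fragments with an antibody and sequences them, and a peak marks a place where fragments pile up above the local background. Of the 6 samples, 3 were controls, and the other 3 received TGF-β1 at 10 ng/ml over a period of 72 h. All 6 came from cells of passages 3 to 6 grown in medium with 25.5 mM glucose and serum, so the controls carried the high glucose as well. The treatment of the control samples beyond this medium was not given in the sources used here, and the labels did not say whether replicates were separate cultures, so p-values measure only the spread between these samples.

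Type IV collagen is the network-forming collagen of basement membranes, built from triple-helical chains that join end to end. The α1 and α2 chains, encoded by Col4a1 and Col4a2, form the network found in nearly all basement membranes and in the mesangial matrix. The α3 and α4 chains, encoded by Col4a3 and Col4a4, join the X-linked α5 chain in the mature glomerular basement membrane, where podocytes make them, and loss of any of these chains can cause Alport syndrome. The genes of each pair lie head to head and are transcribed away from each other from a shared promoter.

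On mm9, Col4a1 (ENSMUSG00000031502.9) spans chr8:11198423-11312826 on the minus strand with 52 exons, and Col4a2 (ENSMUSG00000031503.7) spans chr8:11312805-11449287 on the plus strand with 48 exons. Their annotated starts overlap by 22 bp. Col4a4 (ENSMUSG00000067158.7) spans chr1:82447298-82583424 on the minus strand with 48 exons, and Col4a3 (ENSMUSG00000079465.2) spans chr1:82583496-82718634 on the plus strand with 52 exons. Their gene starts are 71 bp apart. The 300 bp centred on each shared start are shown because no peak was called there in any sample, and the CpG dinucleotides, at which mammalian DNA is mostly methylated, are in capitals. Both are on the plus strand, 5′ to 3′.
Col4a1/Col4a2 shared start, chr8:11312665-11312964: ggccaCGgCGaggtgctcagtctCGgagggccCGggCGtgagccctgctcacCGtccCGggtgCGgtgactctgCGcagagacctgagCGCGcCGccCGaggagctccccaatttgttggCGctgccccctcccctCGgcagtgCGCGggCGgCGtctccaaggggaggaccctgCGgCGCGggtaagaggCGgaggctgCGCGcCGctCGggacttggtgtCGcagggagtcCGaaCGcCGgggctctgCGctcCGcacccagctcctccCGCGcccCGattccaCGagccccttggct
Col4a3/Col4a4 shared start, chr1:82583310-82583609: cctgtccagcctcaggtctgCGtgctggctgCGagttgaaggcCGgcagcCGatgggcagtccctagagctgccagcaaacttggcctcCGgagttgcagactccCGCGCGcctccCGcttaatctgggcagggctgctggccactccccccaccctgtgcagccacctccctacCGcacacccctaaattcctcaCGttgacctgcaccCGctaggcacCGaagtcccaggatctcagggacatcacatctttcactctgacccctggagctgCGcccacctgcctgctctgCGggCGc
In the first sequence Col4a2 starts at base 141 and Col4a1, on the other strand, at base 162. In the second sequence Col4a4 starts at base 115 and Col4a3 at base 187. The Col4a1/Col4a2 window held 37 CpG at a GC content of 74.0% and the Col4a3/Col4a4 window held 16 CpG at 65.3%, where the median over all 22380 protein-coding starts was 14 CpG in windows of the same length. A GC box was searched as GGGCGG and a CCAAT box as CCAAT, each on both strands. The Col4a1/Col4a2 window held 2 GC boxes and 1 CCAAT box, and the Col4a3/Col4a4 window held neither string. Among all starts, 45.7% held GGGCGG and 35.7% held CCAAT.

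The depth was 10319496, 9407103 and 11494356 reads in control samples 1, 2 and 3 and 12748318, 12634300 and 13291419 reads in TGF-β1-treated samples 1, 2 and 3. Every treated sample was therefore deeper than every control sample. The weakest peaks called had a pileup of 8 reads in control samples and of 9 to 10 reads in treated samples. Peaks were called against the local background, so more reads than this could go uncalled where the background was high, and a region without a peak is not the same as unmethylated DNA. The label of mesangial cells could not be checked with expression in these data.

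Peaks from different samples were merged into 1 region wherever they shared at least 1 bp. The 4 genes held 81 regions of the 170444 in the genome, with 46 in the Col4a1/Col4a2 locus and 35 in the Col4a3/Col4a4 locus. Peaks were spread along the gene bodies of both pairs. By the position of the summit, 69 regions lay in introns, 5 in coding exons, 2 in untranslated exons and 5 in the flanks, and 22 regions overlapped an exon by at least 1 bp. All 5 coding-exon regions were in the Col4a1/Col4a2 locus. Col4a1 held 22 regions, Col4a2 24, Col4a3 18 and Col4a4 17.

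In the Col4a1/Col4a2 locus 16 of 46 regions (34.8%) were called in all 6 samples, and in the Col4a3/Col4a4 locus 9 of 35 (25.7%). The share over both loci was 30.9%, beside 24.5% of all regions in the genome. Another 21 regions (25.9%) were called in 1 sample alone, beside 27.3% in the genome, and 35 were called in 2 to 5 samples. Peaks were denser in the first pair. As a mean over samples, Col4a1 and Col4a2 held 10.6 and 10.4 peaks per 100 kb of gene and flanks, and Col4a3 and Col4a4 held 7.0 and 7.19, with a median of 5.18 over all protein-coding genes. The Col4a1/Col4a2 locus also held more CpG, 13.7 per kb against 8.93 per kb in the Col4a3/Col4a4 locus. Within each gene the regions were not gathered at the 5′ end. Cut into 3 equal parts from start to end, the gene body held 8, 7 and 6 regions in Col4a1 and 6, 9 and 8 in Col4a2. They held 6, 7 and 4 in Col4a3 and 3, 5 and 7 in Col4a4.

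**Figure D1:**
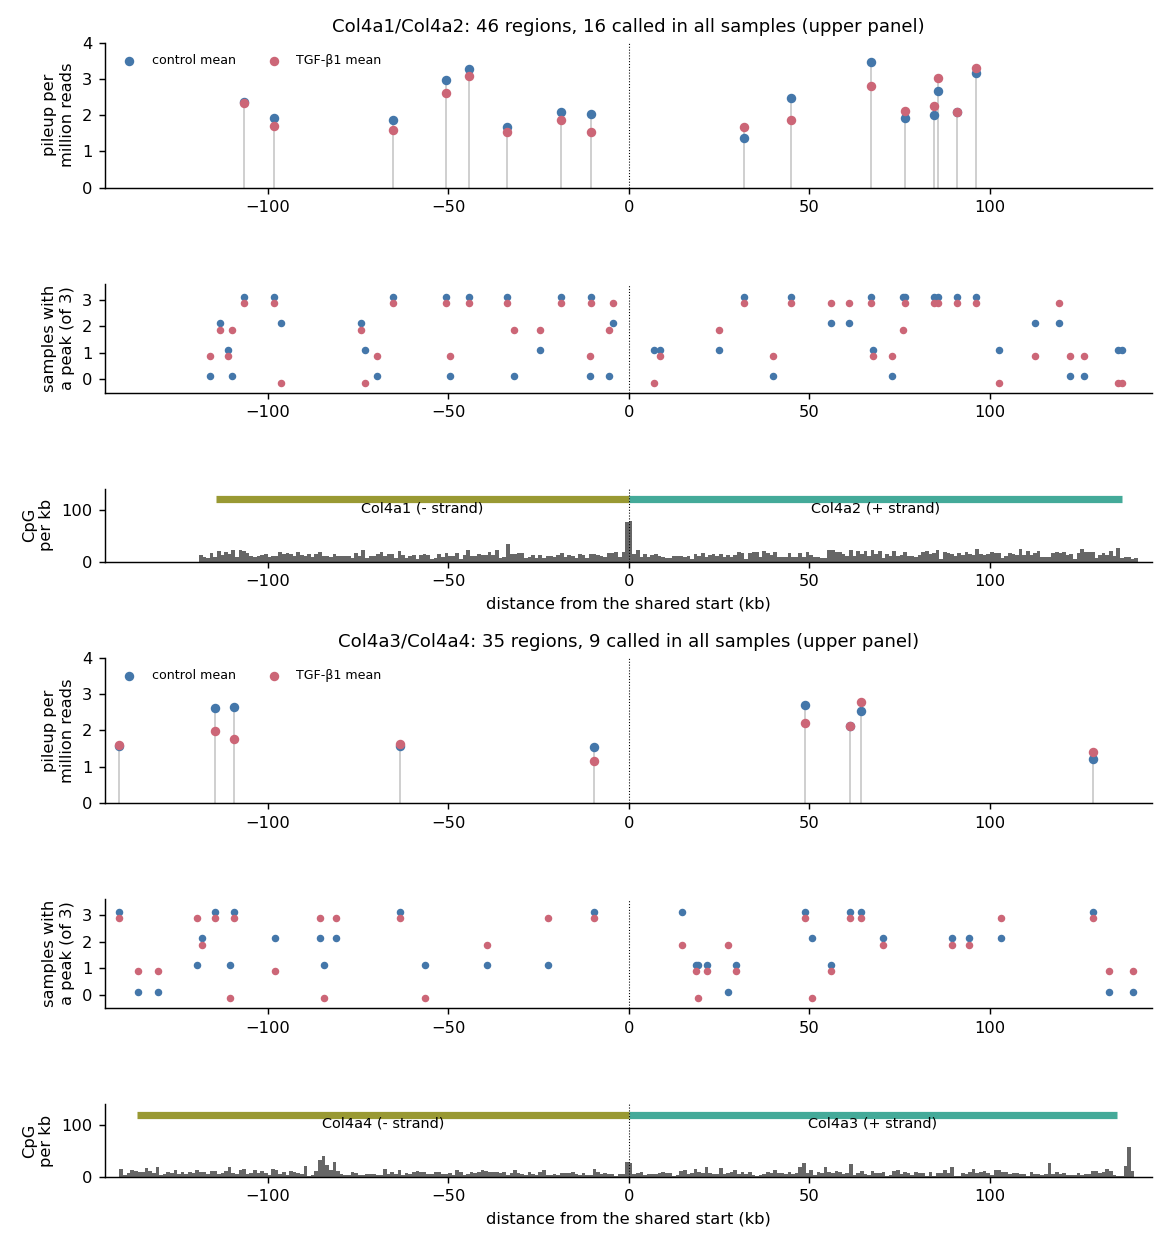
Regions of the Col4a1/Col4a2 and Col4a3/Col4a4 loci by distance from the shared start in kb. For each locus the upper panel plots the mean pileup per 1000000 reads of each group at the regions called in all 6 samples, the middle panel the number of control (blue) and TGF-β1-treated (red) samples with a peak at every region, and the lower panel CpG per kb with the gene bodies drawn as bars above it. The 16 and 9 regions called in all samples lie in the gene bodies or beyond their ends, away from the shared starts.

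The shared starts were free of peaks in every sample. No region lay within 2 kb of any of the 4 starts, which was also so for 67.7% of protein-coding starts and for 65.3% of the 1215 head-to-head protein-coding pairs whose starts were within 1000 bp of each other. The nearest region to the Col4a1/Col4a2 starts was in intron 1 of Col4a1, chr8:11308189-11308543, which was 4283 bp from the Col4a1 start and was called in 2 control and 3 treated samples. On the Col4a2 side the nearest region began 6692 bp from the start and was called in 1 control sample. The nearest region to the Col4a3/Col4a4 starts was in intron 1 of Col4a4, chr1:82573775-82574229, which was 9195 bp from the Col4a4 start and was called in all 6 samples. On the Col4a3 side the nearest region began 14568 bp from the start. Counted in either direction, the nearest region was 4283 and 4262 bp from the starts of Col4a1 and Col4a2, at percentiles 55.1 and 54.9 of all protein-coding starts. It was 9267 and 9195 bp from the starts of Col4a3 and Col4a4, at percentiles 74.4 and 74.2.

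Between regions merged over all 6 samples, the peak-free stretch around the shared start was 10.95 kb at Col4a1/Col4a2 and 23.83 kb at Col4a3/Col4a4. Neither stretch was the longest gap of its locus. The first was the 4th longest of 45 gaps between neighbouring regions, of which the longest was 21.69 kb. The second was the 2nd longest of 34, of which the longest was 24.89 kb. In single samples the order of the pairs varied. The Col4a1/Col4a2 stretch was 36 kb in control sample 2 and 29.2 kb in treated samples 1 and 3. The Col4a3/Col4a4 stretch was shorter in these samples, at 23.9, 23.8 and 27.7 kb. In control samples 1 and 3 and treated sample 2, the Col4a1/Col4a2 stretch was the shorter. Both starts held more CpG per kb than their locus as a whole. The 4 kb around the Col4a1/Col4a2 start held 46.8 CpG per kb, and the 4 kb around the Col4a3/Col4a4 start held 17.0 CpG per kb. In bins of 1 kb the Col4a1/Col4a2 start had the highest CpG counts of its locus, 76 and 78, against at most 34 elsewhere. The Col4a3/Col4a4 start, with 29 and 27, was exceeded by bins within Col4a4, at up to 40, and by a bin beyond the end of Col4a3, at 58.

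CpG-rich segments were defined as stretches of at least 200 bp with a GC content of at least 50% and at least 0.6 of the CpG expected from base composition. The Col4a1/Col4a2 locus held 37 such segments, of which 16 overlapped a region, and the Col4a3/Col4a4 locus held 14, of which 7 did. Because the criterion is relative to base composition, some hold little CpG, such as 1 of 300 bp with 3 CpG in Col4a1, which overlapped a region called in all 6 samples, and 1 of 246 bp with 1 CpG in Col4a4, which overlapped none. The longest, at 1651 bp with 133 CpG, covered the Col4a1/Col4a2 start and held no peak in any sample. CpG-rich segments inside the genes did hold peaks. In intron 22 of Col4a4, 3 regions of 646, 447 and 421 bp held 32, 28 and 21 CpG, or 4.95, 6.26 and 4.99 per 100 bp. The promoter window of that pair held 16 CpG in 300 bp, so the plain counts are over unlike lengths. The 3 regions were called in 5, 1 and 5 of the 6 samples, and were picked out after their values were seen.

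**Figure D2:**
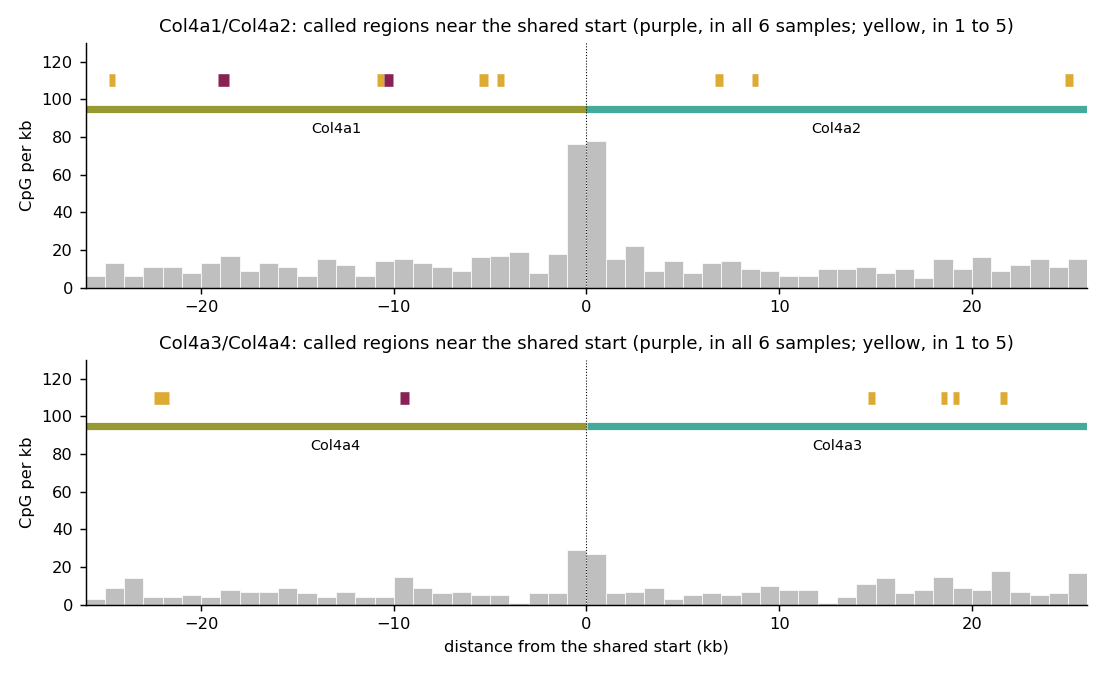
CpG per kb in 1 kb bins (grey bars) within 26 kb of each shared start, with distance in kb on the horizontal axis. Blocks above mark called regions (purple, called in all 6 samples, and yellow, called in 1 to 5) and gene bodies (olive, minus strand, and green, plus strand), and their height is not on the CpG scale. The CpG peak at each start has no region over it, and the nearest regions are 4262 and 9195 bp from a start.

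No region of the 4 genes was called in all 3 samples of a group and none of the other. In the genome 0.948% of regions were called in all 3 treated and no control sample, and 0.233% in all 3 control and no treated sample. Among the 81 regions, 6 (7.41%) were called in at least 2 more treated than control samples, beside 7.85% in the genome, and 2 (2.47%) in at least 2 more control than treated samples, beside 3.12%. Both shares were near the background. The 6 regions were 3 in Col4a1, 2 in Col4a4 and 1 in Col4a3, and the 2 regions were 1 in Col4a1 and 1 in Col4a3.

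At Col4a1/Col4a2, the controls had 24, 25 and 28 peaks, whereas treated samples had 30, 27 and 31. The groups overlapped, and the difference of 3.67 peaks gave p = 0.2 in an exact two-sided permutation test, whose smallest p with 3 against 3 samples is 0.1. Per 1000000 reads, the same locus held 2.47 ± 0.169 peaks in control and 2.27 ± 0.119 peaks in treated samples (SD, n = 3 each). The difference then ran the other way, at -0.199 peaks per 1000000 reads (exact permutation p = 0.3).

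At Col4a3/Col4a4, the controls had 20, 19 and 20 peaks, whereas treated samples had 22, 21 and 22. The groups did not overlap, and the difference of 2 peaks gave the smallest p the design allows (exact permutation p = 0.1). Of the 1215 head-to-head pairs, 4.61% also had every treated sample above every control sample. Per 1000000 reads, these became 1.94, 2.02 and 1.74 peaks for the controls and 1.73, 1.66 and 1.66 for treated samples. The groups again did not overlap, but with every treated sample lower, by a mean of -0.218 peaks per 1000000 reads (exact permutation p = 0.1), as in 8.97% of the head-to-head pairs. The difference also ran the other way without division by depth when only peaks with a fold enrichment of at least 5 were counted, at -2.0 peaks (exact permutation p = 0.1). Over the whole genome, control samples held 81473, 90337 and 100449 peaks and treated samples held 101629, 100379 and 105520. As a mean percent of all peaks, Col4a1/Col4a2 held 0.0283% in control and 0.0286% in treated samples (exact permutation p = 0.9). Col4a3/Col4a4 held 0.0218% in control and 0.0211% in treated samples (exact permutation p = 0.8). The direction therefore depended on the scaling and on the strength of the peaks counted. Depth differed between the groups in every sample, so the part of depth cannot be told apart from treatment.

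The single genes showed no gap between the groups. Col4a1 held 12, 12 and 11 peaks in control and 16, 12 and 16 in treated samples (exact permutation p = 0.3). Col4a2 held 12, 14 and 18 against 15, 16 and 16 peaks (exact permutation p = 0.7). Here the control samples spread more widely than the treated ones, and 1 control sample stood above all treated samples. The 5 kb flank of Col4a2 took in the region of Col4a1 intron 1 at chr8:11308189-11308543, so its peaks were counted for both genes. Col4a3 held 12, 7 and 11 peaks in control and 10, 10 and 11 in treated samples (exact permutation p = 1). Col4a4 held 8, 12 and 9 against 12, 11 and 11 peaks (exact permutation p = 0.4). Control sample 2 had the fewest peaks at Col4a3 and shared the highest count at Col4a4.

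**Figure D3:**
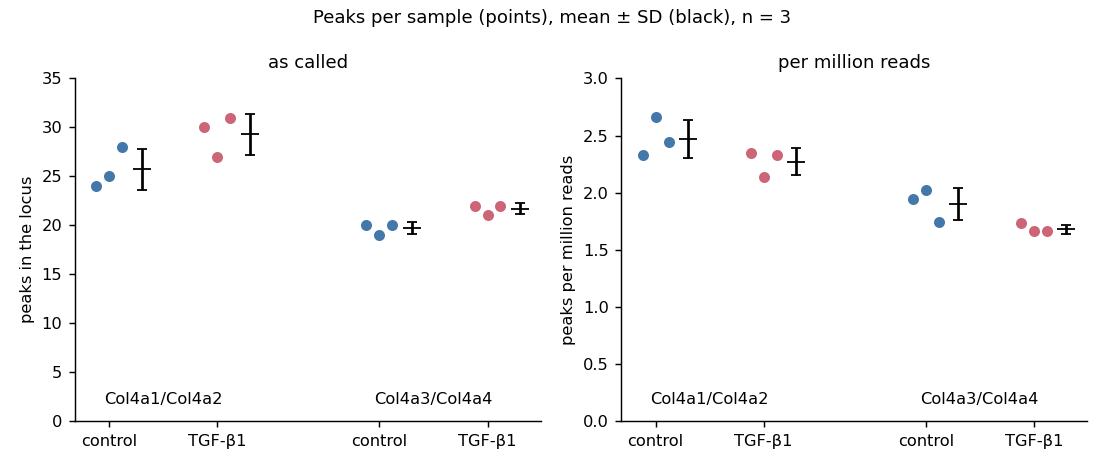
Peaks in each locus by sample, as called (left) and per 1000000 reads (right), with points for the 3 samples of each group and black marks for the mean ± SD. In the left panel the groups overlap at Col4a1/Col4a2, where treated sample 2 has 27 peaks and control sample 3 has 28, and at Col4a3/Col4a4 all 3 treated samples lie higher. In the right panel all 3 lie lower at Col4a3/Col4a4.

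The height of peaks was compared at the 25 regions of the 4 genes that were called in all 6 samples. The value was the highest pileup in the region, the number of overlapping extended reads, on a log2 scale and centred on the sample median. Of the 41744 such regions in the genome, 0 passed an adjusted p below 0.05 in limma with Benjamini-Hochberg adjustment (0% called), and the smallest adjusted p was 0.677. Without adjustment, 818 regions (1.96%) were higher and 926 (2.22%) lower after TGF-β1 at p below 0.05. When the pileup was divided by the reads per sample in place of centring, these counts were 212 and 2387. Among the 25 regions of the 4 genes, 0 were higher and 1 (4%) was lower at this threshold, and their smallest adjusted p in limma was 0.999. The log2 fold change was above 0 in 12 regions and below 0 in 13, with a median of -0.038 beside -0.0047 over all regions (9 and 16 when divided by reads). In the Col4a1/Col4a2 locus 7 were above and 9 below 0, and in the Col4a3/Col4a4 locus 5 were above and 4 below. The study's own test, on read counts over merged peaks, lists Col4a1 as more methylated after TGF-β1. No test on read counts was made here, so that listing was not tested.

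By gene, the log2 fold change was below 0 in 7 of 8 regions of Col4a1, with a median of -0.066, and above 0 in 6 of 8 regions of Col4a2, with a median of 0.20. It was above 0 in 3 of 4 regions of Col4a3 (median 0.15) and below 0 in 3 of 5 regions of Col4a4 (median -0.28). These are counts of directions over regions of the same samples, and none but the 1 region in Col4a4 passed the unadjusted threshold. In the median-centred pileup, 1 region had every treated sample above every control sample (4%, beside 4.33% in the genome) and 3 regions had every treated sample below every control sample (12%, beside 4.96%). The 1 higher region was in intron 4 of Col4a2, chr8:11397202-11397644. The 3 lower ones were in intron 1 of Col4a1, chr8:11302291-11302770, in intron 4 of Col4a2, chr8:11357529-11357903 and in intron 37 of Col4a4. All 4 were named after their values were seen, apart from those named by rule below.

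**Figure D4:**
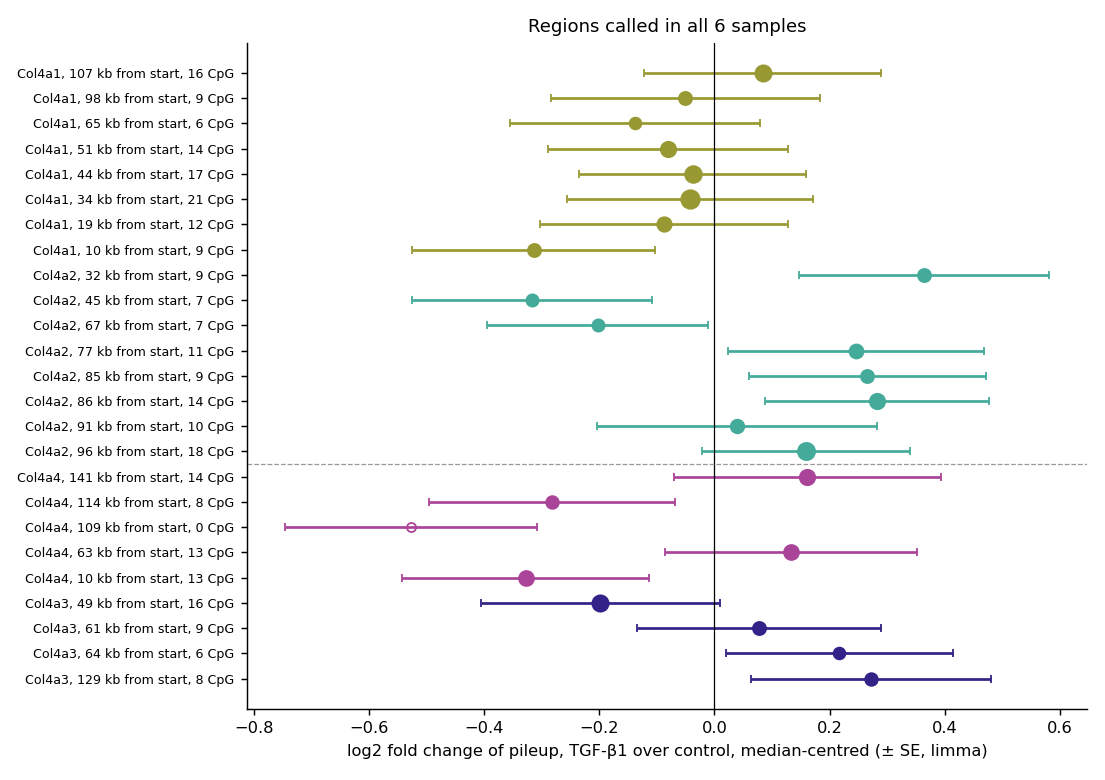
Log2 fold change of pileup, TGF-β1-treated over control, with the SE from limma (bars), at the 25 regions called in all 6 samples, ordered along each locus. Labels give the gene, the distance from the shared start and the CpG in the region, larger points hold more CpG, and the open circle is the region in intron 37 of Col4a4 that holds 0 CpG and has the lowest value, -0.53.

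For each pair the strongest region and the regions with the smallest p in each direction were named by rule. The 121 bp around the summits of 5 of them are shown so that their CpG content can be compared, with CpG in capitals, on the plus strand of mm9.
Col4a2 intron 14, strongest, chr8:11408861-11408981: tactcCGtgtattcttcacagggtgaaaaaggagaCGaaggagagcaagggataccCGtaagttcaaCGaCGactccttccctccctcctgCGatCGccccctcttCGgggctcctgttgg
Col4a2 intron 3, smallest p, higher, chr8:11344602-11344722: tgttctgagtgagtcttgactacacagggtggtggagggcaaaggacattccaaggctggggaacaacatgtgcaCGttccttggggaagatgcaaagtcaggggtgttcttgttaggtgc
Col4a2 intron 4, smallest p, lower, chr8:11357666-11357786: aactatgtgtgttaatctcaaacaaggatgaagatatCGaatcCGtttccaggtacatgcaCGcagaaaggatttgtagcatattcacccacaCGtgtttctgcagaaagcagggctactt
Col4a3 intron 6, strongest, chr1:82647591-82647711: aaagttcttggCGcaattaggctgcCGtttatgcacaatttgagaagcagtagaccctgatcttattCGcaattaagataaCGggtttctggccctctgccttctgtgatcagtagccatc
Col4a3 intron 48, smallest p, higher, chr1:82711926-82712046: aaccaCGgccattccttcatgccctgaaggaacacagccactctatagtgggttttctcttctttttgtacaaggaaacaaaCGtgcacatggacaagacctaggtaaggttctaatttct
These 5 windows held 8, 1, 4, 4 and 2 CpG.

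The strongest region of the Col4a1/Col4a2 locus, chr8:11408669-11409182, lay at the border of intron 14 and exon 14 of Col4a2 and held 18 CpG. Its pileup was 33, 33 and 32 reads in control and 46, 38 and 44 reads in treated samples, with a mean of 3.24 per 1000000 reads over the 6 samples. Every treated sample was higher as counted, but not after centring for depth, where the groups overlapped and the log2 fold change was 0.16 (SE 0.18, unadjusted p = 0.387 in limma). The region with the smallest p among the higher ones was in intron 3 of Col4a2, chr8:11344443-11344859, with 13, 12 and 18 reads in control and 22, 16 and 27 reads in treated samples. Its log2 fold change was 0.36 (SE 0.22, unadjusted p = 0.103 in limma), and the groups overlapped. The lower counterpart, in intron 4 of Col4a2, chr8:11357529-11357903, had 22, 23 and 33 reads in control and 26, 22 and 24 reads in treated samples, and after centring every treated sample was below every control sample. The log2 fold change was -0.32 (SE 0.21, unadjusted p = 0.139 in limma). These regions of Col4a2 thus differed in opposite directions, and neither passed the threshold with all samples. Without TGF-β1-treated sample 2, the intron 3 region did, with a log2 fold change of 0.53 and an unadjusted p of 0.035 in limma.

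In a coding exon, 1 region was called in all 6 samples. It covered exon 49 of Col4a1, chr8:11205932-11206505, near the 3′ end of the gene, whose last coding exons encode the globular domain through which chains join. It held 16 CpG, and its pileup was 21, 27 and 25 reads in control and 33, 29 and 28 reads in treated samples. After centring, the groups overlapped and the log2 fold change was 0.084 (SE 0.21, unadjusted p = 0.686 in limma).

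The strongest region of the Col4a3/Col4a4 locus, chr1:82647466-82647878, lay at the border of intron 6 and exon 7 of Col4a3. Its pileup was 25, 22 and 33 reads in control and 39, 29 and 40 reads in treated samples, with a mean of 2.67 per 1000000 reads. The groups overlapped, and the log2 fold change was 0.22 (SE 0.20, unadjusted p = 0.280 in limma). The region with the smallest p among the higher ones was at intron 48 and exon 48 of Col4a3, chr1:82711794-82712186, with 13, 12 and 13 reads in control and 21, 18 and 15 reads in treated samples. Its log2 fold change was 0.27 (SE 0.21, unadjusted p = 0.200 in limma), and after centring the groups overlapped.

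The region in intron 37 of Col4a4 was the 1 region of the 4 genes that passed the unadjusted threshold. Its pileup was 25, 27 and 30 reads in control and 28, 16 and 24 reads in treated samples. After centring, every treated sample was below every control sample, and the log2 fold change was -0.53 (SE 0.22, unadjusted p = 0.0217, adjusted p = 0.999 in limma). The region was 660 bp long and held 0 CpG, the fewest of all 81 regions, whose median was 9 CpG. With 300 bp added on either side it held 6. The call was lost without control sample 2, where the log2 fold change was -0.50 (unadjusted p = 0.0573 in limma), and with regions called in at least 3 samples, where it was -0.55 (unadjusted p = 0.0532 in limma). It was also lost without TGF-β1-treated sample 2, at -0.33 (unadjusted p = 0.166 in limma), and when fold enrichment over the local background replaced the pileup, at -0.27 (unadjusted p = 0.151 in limma). Whether its pileup reflects methylated CpG was not tested.

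**Figure D5:**
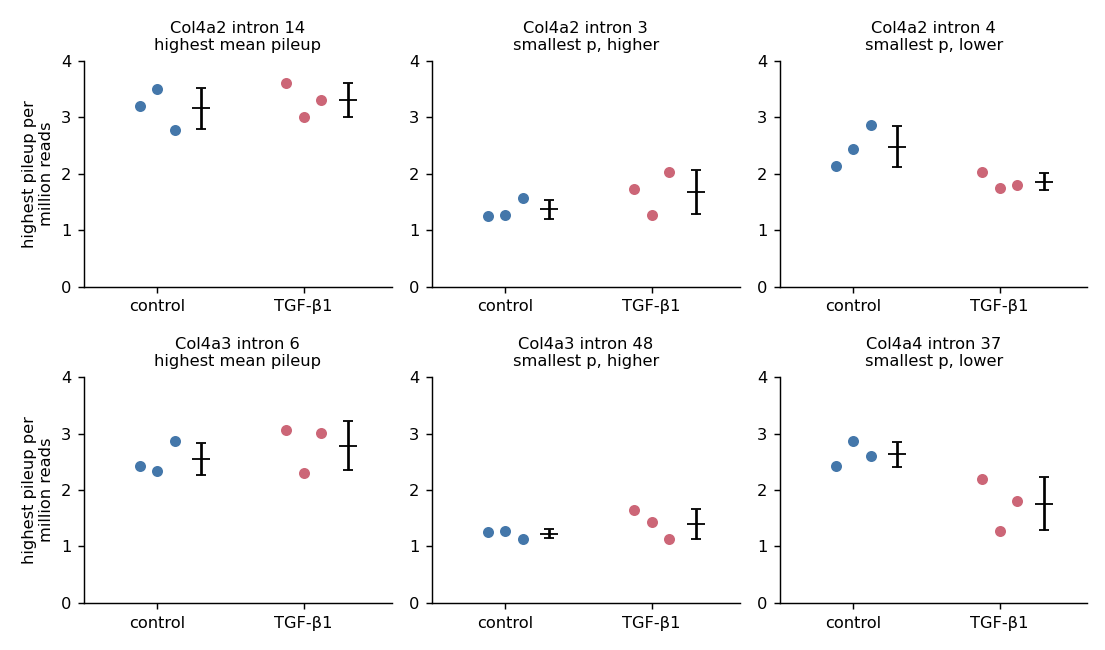
Highest pileup per 1000000 reads in each sample at the strongest region of each pair and the regions with the smallest p in each direction, with points for samples and black marks for the mean ± SD (n = 3). All 3 treated samples lie below all 3 control samples in intron 37 of Col4a4 and in intron 4 of Col4a2. At the 2 strongest regions the groups overlap.

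The pileup of the regions called in all 6 samples was summed over each locus and expressed per 1000000 reads. For Col4a1/Col4a2 it was 37.4 ± 0.968 in control and 35.4 ± 1.92 in treated samples, and for Col4a3/Col4a4 it was 18.6 ± 1.40 and 16.7 ± 1.03 (SD, n = 3 each). The groups overlapped at both loci (exact permutation p = 0.3 and 0.2). As a percent of the summed pileup of all regions called in all samples, the direction turned at Col4a1/Col4a2, from 0.0346% in control to 0.0351% in treated samples (exact permutation p = 0.8). At Col4a3/Col4a4 it did not, with 0.0172% and 0.0165% (exact permutation p = 0.5). To ask whether the pairs differed in their response, the log2 ratio of the first sum to the second was taken within each sample, which does not depend on depth. It was 1.01 ± 0.147 in control and 1.09 ± 0.103 in treated samples, a difference of 0.075 that was smaller than either SD (exact permutation p = 0.5).

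Regions that were called in every sample held more CpG than those called once. At the 4 genes the median was 10 CpG in the 25 regions called in all 6 samples and 6 CpG in the 21 called in 1 sample, beside 13 and 7 over all regions of the genome. The regions called in all samples were also longer, with medians of 480 and 313 bp, and per 100 bp the medians were 2.16 and 2.13 CpG, beside 2.61 and 2.13 CpG over all regions of the genome. Among the 25 regions, the CpG count and the mean pileup per 1000000 reads had a Spearman correlation of 0.14, with 0.33 in the 16 regions of Col4a1/Col4a2 and -0.22 in the 9 of Col4a3/Col4a4, given as a description over regions of the same libraries.

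The X-linked pair Col4a5 and Col4a6, which encode the partner chain of α3 and α4 and its neighbour, had few peaks. Their locus held 7 regions, 0 of them called in all 6 samples, and 0, 3 and 3 peaks in control and 3, 5 and 5 peaks in treated samples (exact permutation p = 0.3). It held 4.93 CpG per kb, and the whole X chromosome held 1.37% to 1.66% of the peaks of each sample. The other genes examined were those of laminins, nidogens, perlecan, agrin and collagens of the same membranes, of enzymes and chaperones that modify and secrete collagen, and of its receptors. Mia3 was not matched in the annotation, and the other 27 genes held 290 regions. Of their 61 regions called in all 6 samples, 26 had a log2 fold change above 0 and 35 below, where 49.2% of all regions were above 0. In each direction 1 passed the unadjusted threshold, beside 1.96% higher and 2.22% lower over all regions, and 0 passed after adjustment. The higher one was in Itga2, an integrin subunit that binds collagen, with a log2 fold change of 0.52 (SE 0.22, unadjusted p = 0.0263 in limma). The lower one was in Loxl2, an enzyme that crosslinks collagen IV, with a log2 fold change of -0.47 (SE 0.19, unadjusted p = 0.0193 in limma). Where the 4 type IV collagen genes held 0 regions called in all 3 treated and no control sample, these 27 genes held 6 of 290 (2.07%), beside the 0.948% of the genome. Pxdn, the peroxidasin that forms the sulfilimine crosslink of collagen IV, held 2 of them, and Loxl2, Plod1, Lamc1 and Hspg2 held 1 each. The regions of Loxl2 and Lamc1 and 1 of the 2 of Pxdn lay in the flank beyond the gene end. For 17 of the 27 genes no region lay within 2 kb of the start, as at the 4 genes and at 67.7% of all protein-coding starts.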

How the data were processed

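MeDIP-seq peak lists of the 6 samples were analysed, grouped by their labels as 3 control and 3 TGF-β1-treated samples. Per the file headers and the study's methods, the authors mapped reads to mm9, removed duplicates and called peaks in each sample separately with MACS2 2.1.0.20150731, with a q cutoff of 0.01, no input sample and a local background of 10000 bp. The deposited pileup is a signal, the number of extended reads over a summit, not normalized for depth. Fold enrichment, as deposited, is a ratio of pileup over the local background. The deposited −log10 p-values and q-values served only as a filter. Reads outside called peaks were not used here, so a test on read counts was not made.

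Peaks with a summit in a gene or 5 kb either side were taken, and peaks overlapping by at least 1 bp were joined. Genes came from GENCODE vM1 and sequence from NCBIM37, the same assembly as mm9. RefSeq names of newer builds were used for symbols only. Regions called in all 6 samples were tested with the trended moderated fit of limma 3.58.1 (R 4.3.3) on median-centred log2 pileup over all 41744 regions. On data simulated at these 41744 regions, limma recovered 190 of 200 regions changed by a log2 fold change of 1 and 200 of 200 changed by 2, with 20 and 10 false calls. The simulated noise was normal, with the same SD of 0.234 in every region. Measured regions differ in spread and many hold few reads, so this recovery does not give the power of the test on the measured data. Single values were compared by exact two-sided permutation over the 20 assignments of 3 and 3 samples. Other calculations used Python 3.11.15.

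The 4 genes, the gene lists and the tests were chosen with earlier results of these data known. Regions were named by rule: any within 2 kb of a shared start, any called throughout 1 group and never in the other, the smallest p in each direction and the highest mean pileup for each pair, and coding-exon regions called in all samples. The sequence of 1 named region is not reported here. Marker genes of mesangial, podocyte, endothelial and tubule cells were looked up at their starts (within 500 bp). A region was found at 1 of 6, 1 of 5, 2 of 4 and 0 of 4 of them, none in all samples, which holds no measure of expression. Alternatives were stricter peak thresholds, other scalings, joining over 200 bp, regions called in at least 3 samples, the omission of single samples, and a block on the replicate number. For regions called in at least 3 samples, missing values were filled with the lowest called pileup of the sample. Leaving out the region with 0 CpG, and giving summed pileup as a percent of that of all shared regions, were added after seeing the data.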

Additional observations from a re-analysis of the deposited data

How the results depend on the processing

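The peak counts turned direction with scaling at some of the loci and genes. Per 1000000 reads the difference between TGF-β1-treated and control samples was -0.199 at Col4a1/Col4a2, -0.218 at Col4a3/Col4a4, -0.190 at Col4a2, -0.153 at Col4a3 and -0.0648 at Col4a4. At Col4a1 it was 0.00439 and did not turn. As a percent of all peaks of the sample it was -0.000691 at Col4a3/Col4a4, -0.000761 at Col4a2 and -0.00107 at Col4a3. On that scale it stayed above 0 at Col4a1/Col4a2 (0.000263), Col4a1 (0.0013) and Col4a4 (0.000376). With a fold enrichment of at least 5 it was -2.0 peaks at Col4a3/Col4a4 (exact permutation p = 0.1), -1.33 at Col4a3 and -0.667 at Col4a4, and with a −log10 q of at least 5 it was -0.333 at Col4a3. Leaving out each sample gave -0.333 (without control sample 1) to 2.67 at Col4a2 and -1.17 (without control sample 2) to 1.33 at Col4a3. The cause of these turns was not tested. Leaving out each sample in turn gave differences of 2.83 to 4.83 peaks at Col4a1/Col4a2 and 1.67 to 2.33 at Col4a3/Col4a4. Summed pileup differed by -2.97 to -1.05 and -2.70 to -1.39 per 1000000 reads (as a percent of the pileup of all shared regions, by 0.000422 and -0.000628 with all samples), and the log2 ratio between the pairs by 0.022 to 0.16. With only the regions holding at least 1 CpG, the Col4a3/Col4a4 sum differed by -1.02 (exact permutation p = 0.3) and the log2 ratio by 0.013 (exact permutation p = 0.8).

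In limma, with Benjamini-Hochberg adjustment, the count over all regions was 1 with fold enrichment in place of pileup and 0 when any single sample was left out. The count of type IV collagen regions at unadjusted p below 0.05 was 0 with fold enrichment, 0 with regions called in at least 3 samples (47 tested), and 0 to 2 when each sample was left out. It was 0 without control sample 2 and 2 without TGF-β1-treated sample 2. Over all regions the unadjusted counts, higher and lower, were 818 and 926. They were 212 and 2387 when scaled by reads, and 2570 and 1427 with regions called in at least 3 samples. In that last setting, a sample without a peak was given its lowest called pileup, 8 reads in control and 9 to 10 in treated samples. Those counts thus rest partly on filled values. With regions called in all 6 samples, the counts were 1241 and 1236 without control sample 1, and 1264 and 1006 without control sample 3.

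Same-numbered samples did not deviate together, with correlations of -0.13 to 0.043, so the numbers were not taken to pair the samples. With the replicate block the difference was 3.67 peaks at Col4a1/Col4a2 and 2.0 at Col4a3/Col4a4 (sign-flip permutation p = 0.25, the smallest that 3 pairs allow), and the block changed no call. Peaks began at a pileup of 8 to 10 reads, and differences below that level cannot be seen in lists of called peaks.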

Other observations

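Regions without CpG were looked for in the whole genome after the region in intron 37 of Col4a4 was seen to hold 0 CpG, so what follows describes the same data that raised the question. Of the 41502 regions called in all 6 samples whose sequence could be read, 73 (0.176%) held 0 CpG. Among the 46286 regions called in 1 sample alone whose sequence could be read, 1089 (2.35%) held none. Of the 73 regions, 51 (69.9%) had a log2 fold change below 0, beside 50.8% of all regions. At an unadjusted p below 0.05 in limma, 10 of the 73 were lower and 2 higher. Over all regions called in all 6 samples, 2.22% were lower and 1.96% higher at this threshold. The median centred log2 pileup of the 73 regions was -0.13, -0.20 and -0.11 in control samples. It was -0.28, -0.30 and -0.32 in TGF-β1-treated samples, with every treated sample lower. Every treated sample was also deeper than every control sample, so the part of depth cannot be told apart from treatment. No set test was run on the 73 regions, and 0 of them passed after adjustment.

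At the ends of the Col4a3/Col4a4 locus a CpG-rich segment of 944 bp with 65 CpG, 138 kb from the shared start and beyond the 3′ end of Col4a3, also held no peak in any sample. At the Col4a1/Col4a2 locus the last segment of Col4a2, of 434 bp with 21 CpG, held a region that was called in 1 sample.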
